A study of Mus musculus with 8 samples.

Results

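The ETS genes examined here encode transcription factors that act downstream of the kinase ERK, and they were chosen as every probe set whose platform annotation names Etv1, Etv4, Etv5, Etv6, Elk1, Elk3, Elk4, Ets1 or Ets2. These 9 genes had 28 of the 45101 probe sets on the array, and 21 of the 28 had a mean signal above the filter on low signals. Total RNA labelled as mouse brain, cerebral cortex, was hybridised to 8 Affymetrix arrays, 1 per sample, and the series title calls the cells astroglial. There were 4 groups of 2 samples: FGF2 with U0126, FGF2 with SB202190, FGF2 alone and vehicle. FGF2 is a fibroblast growth factor that acts through receptor tyrosine kinases, U0126 is an inhibitor of MEK, the kinase that activates ERK, and SB202190 is an inhibitor of the kinase p38. The inhibitors were given together with FGF2, and no group had an inhibitor without FGF2. The labels gave no dose, time, strain, age or genotype, and nothing in them says that the 2 replicates of a group were independent cultures or animals. The p-values therefore reflect the spread between the deposited samples alone, and that spread may be technical. 1 array, FGF2 with SB202190 replicate 2, carried a different treatment type in its label, acclimatization where the other arrays had wait.

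ETS factors share a DNA-binding domain that reads a GGAA core. FGF receptors switch on Ras, Raf, MEK and ERK in turn, and ERK then phosphorylates several ETS proteins, which changes their ability to activate or repress genes. The factors fall into groups with different roles. Etv1, Etv4 and Etv5 form the PEA3 group, whose own transcription is a textbook readout of FGF signalling in embryonic tissues. Elk1, Elk3 and Elk4 are ternary complex factors, which bind DNA together with serum response factor (SRF) at immediate early genes such as Fos and Egr1. Ets1 and Ets2 carry a Pointed domain through which ERK docks, and Etv6 is a repressor that loses activity when ERK phosphorylates it. An array measures RNA and not the phosphorylation that activates these proteins.

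The stretch around the start of Etv5 is shown because Etv5 rose with FGF2, and that of Elk3 because Elk3 both rose with FGF2 and was lower with U0126. That of Elk4 is shown because it holds the letters of the ETS site CCGGAAGT while Elk4 passed neither test. RefSeq windows (GRCm38.p6) of 300 bases, 250 before to 50 after an annotated start, were given for 7 of the 9 genes, 11 windows in all, and were matched by symbol. Capitals mark the motif matches described in the next paragraph, and every window is printed 5′ to 3′ on the gene's own strand. The Etv5 window lies at chr16:22438319-22438618 on the minus strand, the Elk3 window at chr10:93311110-93311409 on the minus strand and the Elk4 window at chr1:132007370-132007669 on the plus strand.
Etv5: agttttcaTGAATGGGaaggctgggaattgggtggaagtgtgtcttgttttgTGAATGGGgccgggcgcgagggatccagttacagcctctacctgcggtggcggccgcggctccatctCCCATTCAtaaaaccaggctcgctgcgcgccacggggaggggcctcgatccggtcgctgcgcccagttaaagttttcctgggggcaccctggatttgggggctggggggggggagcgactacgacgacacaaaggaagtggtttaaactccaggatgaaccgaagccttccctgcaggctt
Elk3: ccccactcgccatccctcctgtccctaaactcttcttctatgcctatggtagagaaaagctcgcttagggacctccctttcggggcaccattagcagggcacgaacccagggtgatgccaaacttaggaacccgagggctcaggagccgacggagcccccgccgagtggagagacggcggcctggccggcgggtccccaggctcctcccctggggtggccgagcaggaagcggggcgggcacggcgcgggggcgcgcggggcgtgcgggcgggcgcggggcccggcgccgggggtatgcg
Elk4: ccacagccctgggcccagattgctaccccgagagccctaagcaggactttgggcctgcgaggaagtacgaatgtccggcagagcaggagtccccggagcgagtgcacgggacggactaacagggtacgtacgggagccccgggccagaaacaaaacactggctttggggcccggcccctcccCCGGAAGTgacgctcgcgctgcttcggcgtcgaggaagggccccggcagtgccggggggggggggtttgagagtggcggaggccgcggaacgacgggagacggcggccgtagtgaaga

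The windows were searched on both strands for octamers of Cic (capicua), a repressor that ERK signalling removes from PEA3 group genes, for the ETS sites CCGGAAGT and CCGGAA, for the AP-1 site TGANTCA and for the CArG box that SRF binds. The Cic octamers were TGAATGAA and TGAATGGA, together with TGAATGGG and TGAATGAG, which differ from them in the last base and were added after the windows had been seen. The Etv5 window held TGAATGGG 3 times, at bases 9 to 16 and 53 to 60 and, on the opposite strand and so printed in reverse complement, at bases 120 to 127. Of the 32851 windows of the same length for 27025 genes, 1.08% held TGAATGGG at least once and 1 window, that of Etv5, held it 3 times or more, a count that restates the observation for which the octamer was added. Any of the 4 octamers occurred in 4.6% of the windows, and 19 windows held 3 or more of them. TGAATGAA and TGAATGGA had no match in any window of the ETS genes. The other window of Etv5 and both windows of Etv1 held none of these octamers. The ETS site CCGGAAGT, which contains the shorter form CCGGAA that was also searched, lay at bases 183 to 190 of the Elk4 window and in no other window of these genes, against 3.89% of all windows, and CCGGAA was in 14.9%. Other forms around the core GGAA were not searched, and each printed window holds GGAA that is not marked. TGANTCA was in 7.81% of all windows and the CArG box in 1.63%, and neither was in a window of these genes. A match is a run of letters and does not show that a factor was bound there in these cells.

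With FGF2 against vehicle Etv5, Elk3 and Ets1 rose, Etv4 was called higher from vehicle signals below the filter, and 2 probe sets that Etv1 shares with a pseudogene rose. On the log2(signal + 1.77) scale used throughout, limma called Etv4, Etv5, Elk3 and Ets1 higher at an adjusted p under 0.05, and none lower, of the 8 genes that could be tested by gene. That is 50% of them, against 37.9% of the 13174 genes tested that were called in either direction and 18.9% called higher. The median change of the 8 genes was 0.64 log2, against -0.004 for all genes tested. Etv4 passed the filter on low signals through its FGF2 groups alone and had to differ to be tested, so these figures support nothing about the set. Without it, an alternative chosen after seeing the data, 3 of 7 genes were called higher (42.9%) and the median was 0.43. Etv6, Elk1, Elk4 and Ets2 were not called. On the array's 21 ETS probe sets above the filter, tested among 27061 probe sets, 12 were called higher and none lower, which is 57.1% against 30.5% of all probe sets called, or 11 of 19 without Etv4. These 12 belonged to 6 genes, and probe sets of 1 gene share a target, so they are not independent.

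Relative to FGF2 alone, 2 of these genes were lower with the MEK inhibitor and none passed with the p38 inhibitor. Elk3 and Ets1 were called lower with U0126, 2 of 8 genes or 25%, against 22.1% of all genes called in either direction and 10.5% called lower, so the share of ETS genes called was close to that of all genes. By probe set, 6 of the 21 were lower and none higher, 28.6% against 16.3% of all probe sets, and these 6 belonged to Etv1, Elk3 and Ets1. For the p38 inhibitor limma called 0 of 8 genes and 0 of 21 probe sets in FGF2 with SB202190 against FGF2, where 3.02% of all genes and 1.91% of all probe sets were called. At an unadjusted p under 0.05, 1 of the 8 genes and 1 of the 21 probe sets passed, both Etv5. With no intensity trend in the fit, 0 of all genes were called for SB202190 against FGF2, so every such call below depends on that setting. FGF2 with U0126 against FGF2 and FGF2 against vehicle share the 2 FGF2 arrays, so a high value there enters both with opposite sign.

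**Figure D1:**
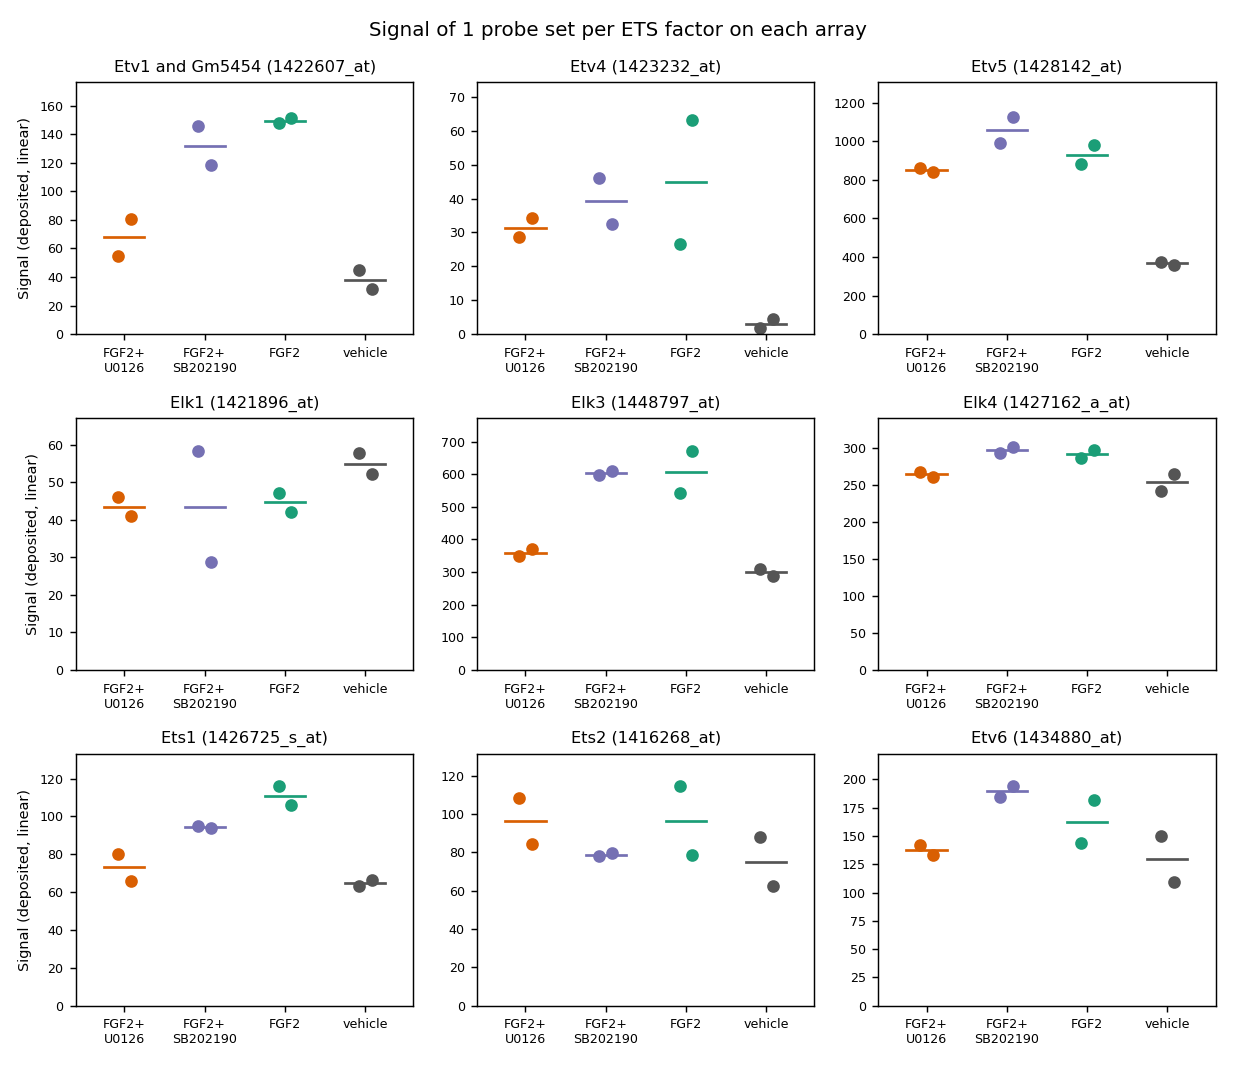
Deposited signal (linear, no unit) of 1 probe set per ETS gene on each of the 8 arrays, with FGF2+U0126, FGF2+SB202190, FGF2 and vehicle from left to right. Points are arrays and bars are means of 2 arrays. The vehicle arrays lie below all other arrays for Etv1, Etv4 and Etv5, and for Elk3 the U0126 arrays at 348 and 371 lie between the vehicle arrays and the FGF2 arrays.

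In the PEA3 group all 3 Etv5 probe sets, 1 of 2 for Etv4 and both bright probe sets of the pair Etv1 and Gm5454 were called higher with FGF2. Etv5, which in mouse embryos acts in FGF-dependent outgrowth and branching, had signals of 862 and 839 in FGF2 with U0126, 991 and 1127 in FGF2 with SB202190, 879 and 983 in FGF2 and 373 and 359 in vehicle (probe set 1428142_at). All 6 arrays with FGF2 were at least 839, and both vehicle arrays were at 373 or below, with no overlap. The change for FGF2 minus vehicle was 1.33 ± 0.08 log2 (SE), a 2.51-fold rise (limma, adjusted p = 7.28e-08, n = 2 each). With U0126 minus FGF2 it was -0.14 ± 0.08 with a 95% interval of -0.32 to 0.04 (limma, adjusted p = 0.279), so Etv5 was not called lower with the MEK inhibitor and stayed above vehicle by 1.19 (adjusted p = 2.76e-07). Both other Etv5 probe sets were also called higher with FGF2 and not called with U0126. Probe set 1420998_at had 403 and 310 in FGF2 with U0126, 388 and 455 in FGF2 and 129 and 133 in vehicle, and 1450082_s_at had 365 and 358 in FGF2 with U0126, 408 and 462 in FGF2 and 124 and 175 in vehicle. Their FGF2 changes were 1.69 ± 0.13 and 1.57 ± 0.14, and their U0126 changes against FGF2 were -0.25 (adjusted p = 0.218) and -0.28 (adjusted p = 0.233).

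Etv5 was the 1 ETS gene with an unadjusted p under 0.05 for SB202190. Its change for FGF2 with SB202190 minus FGF2 was 0.19 ± 0.08, with an unadjusted p of 0.0415 and an adjusted p of 0.266 in limma. Both SB202190 arrays were above both FGF2 arrays on 1428142_at, by a small margin, whereas on 1420998_at and 1450082_s_at the changes were -0.04 and -0.10. Set directly against each other, FGF2 with U0126 was lower than FGF2 with SB202190 by -0.32 ± 0.08 log2 (limma, adjusted p = 0.0128). That call did not hold with no intensity trend (adjusted p = 0.0953), with the mean of the gene's probe sets (-0.24, adjusted p = 0.144), without FGF2 with U0126 replicate 2 (-0.29, adjusted p = 0.0822) or without FGF2 with SB202190 replicate 2 (-0.22, adjusted p = 0.148).

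Etv4, the member of the group used with Etv5 as a marker of FGF signalling in the mouse limb bud, had low signals. Probe set 1423232_at read 28.7 and 34.2 in FGF2 with U0126, 46.0 and 32.5 in FGF2 with SB202190, 26.7 and 63.3 in FGF2 and 1.67 and 4.45 in vehicle. Both vehicle values were under the filter signal of about 12.4 and every array with FGF2 was above it, so the gene passed the filter through the FGF2 groups alone and had to differ to be tested. The change of 3.42 ± 0.47 log2 (limma, adjusted p = 7.61e-05) therefore depends on the pseudocount, and with 16 in place of 1.77 it was 1.69. The FGF2 arrays differed by more than the shift U0126 gave: the U0126 change was -0.38 with a 95% interval of -1.40 to 0.64 (adjusted p = 0.619), which is wide enough to hold a marked fall as well as a rise. SB202190 gave -0.10 (adjusted p = 0.948). The second Etv4 probe set, 1443381_at, read 16.4 and 21.6 in FGF2 with U0126, 7.82 and 18.2 in FGF2 with SB202190, 18.9 and 19.2 in FGF2 and 1.04 and 16.9 in vehicle, and it was not called (1.68 ± 0.76, adjusted p = 0.12). Its vehicle arrays differed most, and without vehicle replicate 2 the change was 2.99 (adjusted p = 0.00841).

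Etv1, known in the mouse cortex as a marker of deep-layer projection neurons and elsewhere as an ERK-stabilised protein, had 3 probe sets, all of which the platform annotation gives to Etv1 and to Gm5454 together. Gm5454 is a pseudogene in RefSeq, and these signals cannot be divided between the pair. Probe set 1422607_at read 54.8 and 80.8 in FGF2 with U0126, 146 and 118 in FGF2 with SB202190, 148 and 151 in FGF2 and 44.6 and 31.6 in vehicle. The U0126 arrays lay between the vehicle arrays and the others without overlap. In the fit by probe set the FGF2 change was 2.08 ± 0.22 log2, or 4.24-fold (limma, adjusted p = 1.71e-05), the U0126 change against FGF2 -1.15 ± 0.22 (adjusted p = 0.00382) and the SB202190 change -0.19 ± 0.22 (adjusted p = 0.769). The signal with U0126 remained above vehicle by 0.93 log2 (adjusted p = 0.00809) and differed from SB202190 by -0.96 log2 (adjusted p = 0.0102). The call against vehicle was lost without vehicle replicate 2 (0.71, adjusted p = 0.068) or FGF2 with U0126 replicate 2 (0.65, adjusted p = 0.0903), and that against SB202190 without FGF2 with U0126 replicate 1 (-0.68, adjusted p = 0.0918) or FGF2 with SB202190 replicate 1 (-0.81, adjusted p = 0.0936).

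Probe set 1450684_at, for the same pair, had 74.7 and 46.3 in FGF2 with U0126, 107 and 117 in FGF2 with SB202190, 96.6 and 118 in FGF2 and 32.9 and 25.3 in vehicle. Again no U0126 array reached an FGF2 array. Its FGF2 change was 1.98 ± 0.23 (limma, adjusted p = 3.43e-05) and its U0126 change -0.82 ± 0.23 (adjusted p = 0.029), with 0.07 for SB202190 (adjusted p = 0.928). The U0126 call was lost on both probe sets with no intensity trend (adjusted p = 0.0552 and 0.101), and on 1450684_at also with no filter (0.0579), without FGF2 replicate 1 (0.0647) or 2 (0.2), and without FGF2 with U0126 replicate 2 (0.219). The remaining probe set, 1445314_at, stayed below the filter at 0.76 to 8.41 on all 8 arrays.

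Among the ternary complex factors, Elk3 changed and the other 2 were not called. Elk3 (also known as Net), which represses SRF targets until ERK phosphorylates it and is known for a role in blood vessels, read 348 and 371 in FGF2 with U0126, 596 and 610 in FGF2 with SB202190, 541 and 670 in FGF2 and 309 and 289 in vehicle (1448797_at). The U0126 arrays sat just above the vehicle arrays and below every array of the other FGF2 groups. The FGF2 change was 1.00 ± 0.10 log2, a 2-fold rise (limma, adjusted p = 4.87e-06), and the U0126 change against FGF2 was -0.75 ± 0.10, with a 95% interval of -0.97 to -0.53 (adjusted p = 0.000167). With U0126, Elk3 was 0.25 ± 0.10 above vehicle, which did not pass (adjusted p = 0.0756) but did without FGF2 replicate 1 (adjusted p = 0.0455) or 2 (0.0469). With SB202190 it differed from FGF2 by -0.001 with an interval of -0.218 to 0.215 (adjusted p = 0.996), and U0126 against SB202190 gave -0.75 (adjusted p = 0.000156).

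The other Elk3 probe sets were dimmer and mostly moved with it. Probe set 1417662_at had 56.8 and 39.3 in FGF2 with U0126, 69.2 and 66.3 in FGF2 with SB202190, 87.9 and 82.6 in FGF2 and 43.2 and 51.8 in vehicle, and was called in both comparisons (0.95, adjusted p = 0.0047, and -0.81, adjusted p = 0.023, limma). That second call was lost without FGF2 replicate 1 (adjusted p = 0.122), FGF2 replicate 2 (0.0925) or FGF2 with U0126 replicate 2 (0.163), with no filter (0.051) and with no intensity trend (0.0611). Probe set 1435143_at had 82.2 and 74.0 in FGF2 with U0126, 88.2 and 89.6 in FGF2 with SB202190, 111 and 111 in FGF2 and 41.2 and 55.3 in vehicle. It was called higher with FGF2 (1.31, adjusted p = 0.000195) and not called with U0126 (-0.51, adjusted p = 0.0917), and its U0126 arrays were still above vehicle (0.80, adjusted p = 0.00756, and 0.0594 without vehicle replicate 1 or 0.0515 without FGF2 with U0126 replicate 1). The remaining probe set, 1445886_at, was below the filter, and where all 4 were averaged the U0126 change of Elk3 was -0.35 (adjusted p = 0.299).

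Elk1, the founding ternary complex factor and the usual example of an ERK substrate, read 46.2 and 40.9 in FGF2 with U0126, 58.4 and 28.7 in FGF2 with SB202190, 47.3 and 42.1 in FGF2 and 57.8 and 52.3 in vehicle (1421896_at). The SB202190 arrays alone spanned the values of all other groups. Its FGF2 change was -0.16 ± 0.30 log2 with an interval of -0.80 to 0.48 (limma, adjusted p = 0.71), and its U0126 change was -0.04 (adjusted p = 0.941). A second probe set, 1421897_at, had a change of -0.18 with FGF2 and -0.03 with U0126, neither called, and the last was below the filter.

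Elk4 (also known as SAP-1), best known for its part in the positive selection of mouse thymocytes, read 268 and 261 in FGF2 with U0126, 293 and 301 in FGF2 with SB202190, 287 and 298 in FGF2 and 242 and 265 in vehicle (1427162_a_at). Its FGF2 change was 0.21 ± 0.10 (limma, adjusted p = 0.108) and its U0126 change -0.15 ± 0.10 (adjusted p = 0.291). The FGF2 arrays were above the vehicle arrays by a margin that did not pass, and the intervals of these 2 changes were 0.001 to 0.418 and -0.363 to 0.054. Probe set 1447571_at was not called either (-0.10 and -0.32). Another, 1422233_at, lay below the filter with 2.36 and 3.51 in FGF2 and 18.0 and 18.9 in vehicle, and was not tested. The last, 1450549_s_at, was at 11.7 or less on all arrays.

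**Figure D2:**
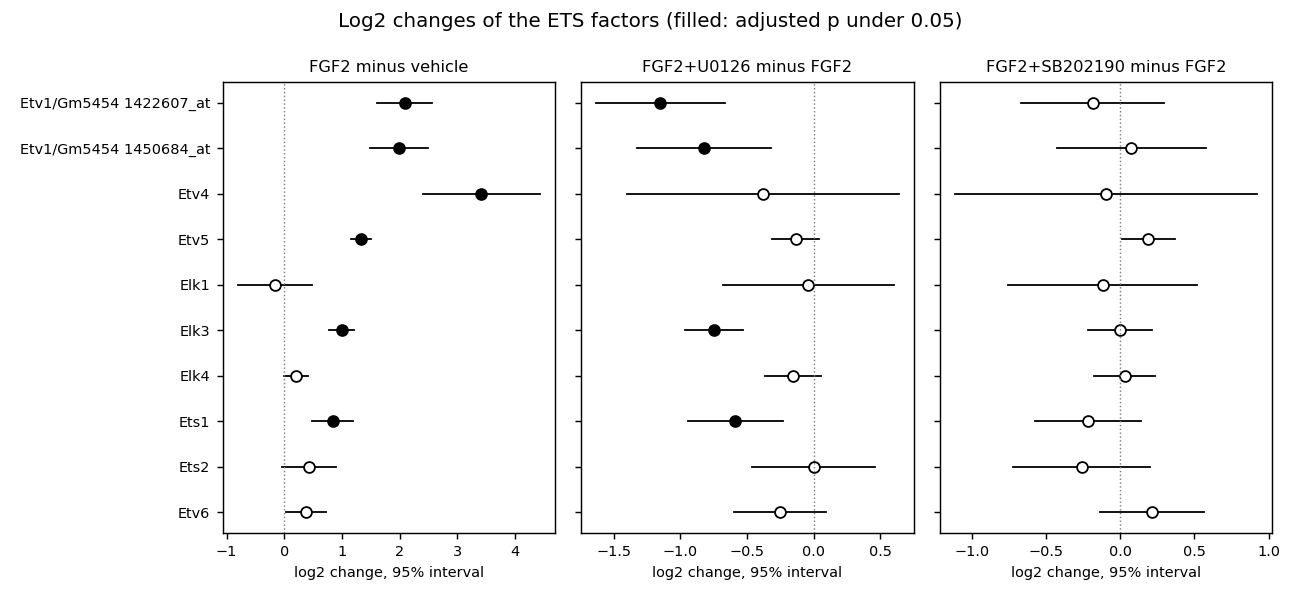
Log2 changes (x axis) of each ETS gene, and of both Etv1/Gm5454 probe sets above the filter, in FGF2 minus vehicle, FGF2+U0126 minus FGF2 and FGF2+SB202190 minus FGF2, with 95% intervals from limma. Filled points have an adjusted p under 0.05, and the x ranges differ between panels. Etv5 changed by 1.33 with FGF2 and -0.14 with U0126, and Elk3 by 1.00 and -0.75.

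Ets1, a factor known from lymphocytes and endothelium, read 80.3 and 66.0 in FGF2 with U0126, 94.7 and 94.0 in FGF2 with SB202190, 116 and 106 in FGF2 and 63.4 and 66.2 in vehicle (1426725_s_at). The FGF2 arrays were the highest, the SB202190 arrays next, and the U0126 and vehicle arrays overlapped. Its FGF2 change was 0.84 ± 0.17 log2, a 1.79-fold rise (limma, adjusted p = 0.00123), and its U0126 change -0.59 ± 0.17 (adjusted p = 0.0214). With U0126, Ets1 was 0.25 above vehicle, which did not pass (adjusted p = 0.276), while with SB202190 it was 0.62 above vehicle (adjusted p = 0.00951) and -0.22 from FGF2 (adjusted p = 0.548). The U0126 call was lost without FGF2 replicate 1 (adjusted p = 0.128), without FGF2 replicate 2 (0.0666) and without FGF2 with U0126 replicate 2 (0.132), at changes of -0.53, -0.64 and -0.47. The call of SB202190 against vehicle was lost without vehicle replicate 1 (adjusted p = 0.0503) or FGF2 with SB202190 replicate 1 (0.0508).

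Probe sets of Ets1 disagreed. Probe set 1452163_at had 59.9 and 68.0 in FGF2 with U0126, 85.4 and 93.8 in FGF2 with SB202190, 98.0 and 90.9 in FGF2 and 71.3 and 68.0 in vehicle, and passed in both comparisons (0.51, adjusted p = 0.0345, and -0.55, adjusted p = 0.0426, limma). The U0126 call was lost with the replicate number as a block (adjusted p = 0.0546), with median centring (0.0571), with no filter (0.0764) and with only the arrays compared (0.0595). Without any 1 of the 4 arrays of FGF2 and vehicle its FGF2 call was lost (adjusted p of 0.0831 to 0.152). Without any 1 of the 6 arrays with FGF2 the U0126 call was lost too. With 1 array left out, the U0126 change was -0.65 to -0.44. Probe set 1422027_a_at had changes of 0.70 and -0.44 and 1422028_a_at of -0.36 and 0.01, none called, and with the mean of the probe sets neither Ets1 change passed (0.42, adjusted p = 0.154, and -0.39, adjusted p = 0.244).

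Ets2, the close relative of Ets1 that mouse trophoblast requires, read 108 and 84.6 in FGF2 with U0126, 78.1 and 79.5 in FGF2 with SB202190, 115 and 78.4 in FGF2 and 88.2 and 62.3 in vehicle. The groups overlapped. Its FGF2 change was 0.43 ± 0.21 (limma, adjusted p = 0.137), and its U0126 change had an interval of -0.46 to 0.46 (adjusted p = 0.999). Its other 2 probe sets were below the filter.

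Etv6 (also known as Tel), needed for blood stem cells in mouse bone marrow, gave 2 answers. On the brighter probe set, 1434880_at, it read 142 and 133 in FGF2 with U0126, 184 and 194 in FGF2 with SB202190, 143 and 181 in FGF2 and 150 and 109 in vehicle. FGF2 and vehicle overlapped, with a change of 0.37 ± 0.16 (limma, adjusted p = 0.0887) and -0.25 with U0126 (adjusted p = 0.304). The FGF2 change passed without vehicle replicate 1 (0.60, adjusted p = 0.0188), without FGF2 replicate 1 (0.54, adjusted p = 0.047) and with the mean of the 2 probe sets (1.07, adjusted p = 0.00395). Its SB202190 arrays were above both vehicle arrays by 0.58 ± 0.16 (adjusted p = 0.0117), a call that was lost without vehicle replicate 2 (0.36, adjusted p = 0.131) or FGF2 with SB202190 replicate 2 (0.55, adjusted p = 0.071), or with no intensity trend (adjusted p = 0.0608). On 1423401_at it read 52.5 and 31.5 in FGF2 with U0126, 67.1 and 65.0 in FGF2 with SB202190, 63.4 and 83.7 in FGF2 and 13.6 and 37.4 in vehicle. That probe set was called higher with FGF2 (1.78 ± 0.39, adjusted p = 0.00414) and was not called with U0126 (-0.78, adjusted p = 0.215). Its FGF2 change was 1.06 without vehicle replicate 1 and missed the threshold with no intensity trend (adjusted p = 0.0528).

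**Figure D3:**
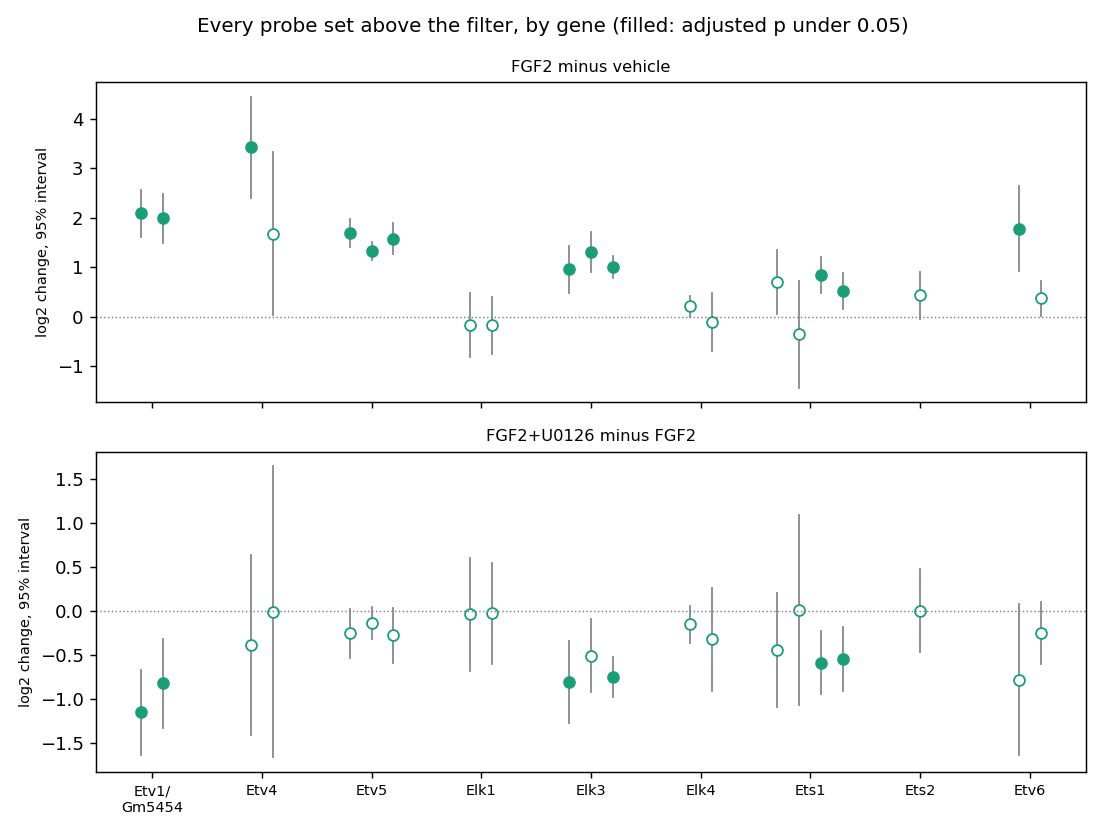
Log2 change (y axis) with 95% intervals of every ETS probe set above the filter, grouped by gene, for FGF2 minus vehicle (top) and FGF2+U0126 minus FGF2 (bottom), with filled points at an adjusted p under 0.05. All 3 Etv5 probe sets are filled in the top panel and none in the bottom panel, and the probe sets of Etv6 and of Ets1 differ among themselves.

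The part of the FGF2 change left under each inhibitor was computed for Etv5, Elk3, Ets1 and the Etv1/Gm5454 probe sets as the log2 difference of the inhibitor group from vehicle, divided by the log2 difference of FGF2 from vehicle. For Etv4 it is not given, since its vehicle signals were below the filter and the pseudocount sets its size. With U0126, 89.8% was left for Etv5, 44.8% and 58.6% for the 2 Etv1/Gm5454 probe sets, 25% for Elk3 and 30.2% for Ets1. With SB202190 it was 114% for Etv5, 91.1% and 104% for the 2 Etv1/Gm5454 probe sets, 99.9% for Elk3 and 73.8% for Ets1. The shares of Etv5, Elk3 and Ets1 are those of the brightest probe set, and no interval was computed. Other probe sets differed in their U0126 change against vehicle. Elk3 1435143_at had 0.80 beside 1.31 with FGF2, and 1417662_at had 0.15 beside 0.95. Ets1 1452163_at had -0.03 beside 0.51. On the brightest probe set of each gene, the 95% intervals of the U0126 changes of Etv5 (-0.32 to 0.04) and Elk3 (-0.97 to -0.53) did not overlap. On dimmer probe sets they did, as for Etv5 1420998_at (-0.534 to 0.025) and Elk3 1435143_at (-0.916 to -0.096). The difference between the genes was not itself tested. Set against vehicle, limma called 2 of 8 genes with FGF2 and U0126 (Etv4 and Etv5, against 31.7% of all genes, and 1 of 7 without Etv4) and 5 of 8 with FGF2 and SB202190 (Etv4, Etv5, Etv6, Elk3 and Ets1, against 35.8%, and 4 of 7 without Etv4), all higher. In FGF2 with U0126 against FGF2 with SB202190, 2 of 8 were called lower (Etv5 and Elk3), against 22.7% of all genes called in either direction.

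Across the 8 arrays several ETS genes, called or not, had correlated signals, as a description over points that share groups and normalization. Pearson's r of log2 signal was 0.951 between Etv4 and Etv5 and 0.902 between Elk3 and Ets1, and 0.815 between Elk3 and Etv5. Genes that were not called with FGF2 correlated as closely, with 0.897 between Elk4 and Elk3, 0.866 between Elk4 and Ets1 and 0.853 between Etv6 and Elk3, while Elk1 and Ets2 had r of -0.436 to 0.465 with every other gene of the set. Over all genes tested, the closest to Etv5 were Clcf1 (r = 0.9947), which encodes a cytokine of the interleukin-6 family, Rrn3 (0.9935), an RNA polymerase I initiation factor, and Dusp6 (0.9931). Clcf1 changed by 2.57 log2 with FGF2 and -0.29 with U0126. The closest to Elk3 were Cep55 (0.9936), which acts in the last step of cell division, Ier5l (0.9894) and the laminin gene Lamb1 (0.9861). Cep55 changed by 1.41 log2 with FGF2 and -1.02 with U0126. For Ets1 they were B130055M24Rik (0.9953), the caveolin Cav2 (0.9917) and the phosphatase subunit Ppp1ca (0.9893), and for Etv4 they were Foxk2 (0.9907), Wsb2 (0.9894) and Ptpn9 (0.9874). Foxk2, Wsb2 and Ptpn9 changed by 0.48, 0.42 and 0.89 log2 with FGF2, against 3.42 for Etv4. The vehicle signals of Etv4 lay below the filter, so its r values, that with Etv5 included, largely restate the gap between vehicle and the other arrays.

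Genes around the ETS factors were counted in lists. Of 18 further ETS family genes, 16 were on the array with a probe set of their own and 8 were above the filter. With FGF2 limma called 2 of the 8 (25%, against 37.9% of all genes): Erf, a repressor whose export from the nucleus ERK drives, was higher (0.39 ± 0.13, adjusted p = 0.0257) and Elf1 lower (-0.85 ± 0.15, adjusted p = 0.000527). Elf1 read 165 and 149 in FGF2 with U0126, 134 and 133 in FGF2 with SB202190, 137 and 99.3 in FGF2 and 207 and 224 in vehicle. Neither inhibitor gave a call among these 8 in limma against FGF2, where 22.1% (U0126) and 3.02% (SB202190) of all genes were called. At an unadjusted p under 0.05, 2 passed with U0126 and 1 with SB202190.

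On the route from the FGF receptor to ERK, 16 of 23 listed genes had a probe set of their own, and all 16 were above the filter. With FGF2 limma called 3 of the 16 higher and 4 lower (median -0.02), 43.8% against 37.9% of all genes. Gab1, a docking protein that relays receptor signals, was lower by -1.45 ± 0.09 (adjusted p = 8.91e-08), Fgfr3, the FGF receptor typical of astrocytes, by -0.66 ± 0.09 (adjusted p = 6.62e-05) and the kinase gene Braf by -0.68 ± 0.10 (adjusted p = 0.000179). Rps6ka3, encoding a kinase that ERK activates, was higher by 0.66 ± 0.13 (adjusted p = 0.0011). With U0126 against FGF2, 4 were higher and 1 lower, 31.2% against 22.1% of all genes: Fgfr3 (0.61), Gab1 (0.49), Braf (0.40) and Araf (0.30) were higher and Rps6ka3 (-0.59) lower, with adjusted p of 0.000331, 0.00204, 0.0146, 0.0121 and 0.00473. With SB202190 the 1 call, 6.25% against 3.02% of all genes, was Fgfr2, lower by -0.37 (adjusted p = 0.0243). Among the called genes outside the rule for named genes, chosen after their values were seen like Braf with U0126, Fgfr2 was lower (-0.32) and Map2k2 (0.39) and Shc1 (0.32) higher with FGF2.

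Partners and regulators of these ETS proteins formed a list of 18, of which 17 had a probe set of their own, all 17 above the filter. Of these, 2 rose and 3 fell with FGF2, 29.4% against 37.9% of all genes: Runx1, a partner of Ets1 on DNA, was higher (1.13 ± 0.19, limma, adjusted p = 0.000414), and so was Det1 (0.58, adjusted p = 0.039), which with Cop1 directs the destruction of PEA3 group proteins and was named after its value was seen. Pias1 (-0.57), a SUMO ligase, Cul4a (-0.56), the scaffold of the ubiquitin ligase that holds Det1, and Gtf2i (-0.29) were lower, with adjusted p of 0.000867, 0.000671 and 0.00365. Cul4a was the 1 call with U0126 (0.45, adjusted p = 0.0057) and the 1 call with SB202190 (0.62, adjusted p = 0.00583), higher in both. That was 5.88% of the 17 genes each time, against 22.1% and 3.02% of all genes. Cic, whose octamer was searched in the windows above, read 163 and 142 in FGF2 with U0126, 202 and 160 in FGF2 with SB202190, 131 and 142 in FGF2 and 156 and 192 in vehicle. Its FGF2 change of -0.31 was not called (adjusted p = 0.13), nor was that of Srf (-0.10, adjusted p = 0.636), and this pair is named outside the rule for its known roles.

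Targets of SRF and the ternary complex factors changed in both directions with FGF2. Of 9 above the filter, limma called 2 higher and 3 lower with FGF2 (median -0.10), 55.6% against 37.9% of all genes. Fos, an AP-1 subunit, read 384 and 471 in FGF2 with U0126, 371 and 471 in FGF2 with SB202190, 627 and 627 in FGF2 and 1212 and 1317 in vehicle, so it was lowest with either inhibitor and highest in vehicle. Its changes were -1.03 ± 0.11 with FGF2 (adjusted p = 1.05e-05), -0.56 with U0126 (adjusted p = 0.00306) and -0.58 with SB202190 (adjusted p = 0.015). Junb was also lower with FGF2 (-0.72, adjusted p = 0.00374), as was Nr4a1 (-1.12, adjusted p = 0.0203), named after its value was seen, and Mcl1, which encodes a survival protein, and Egr3 were higher (0.42 and 0.81, adjusted p = 6.09e-05 and 0.0198).

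With U0126 against FGF2, 6 of these 9 targets were lower and 1 higher, 77.8% against 22.1% of all genes. Egr1, an immediate early gene whose promoter is the classic ternary complex target, read 201 and 205 in FGF2 with U0126, 725 and 826 in FGF2 with SB202190, 549 and 510 in FGF2 and 540 and 536 in vehicle. It was lower with U0126 by -1.37 ± 0.09 (limma, adjusted p = 3.5e-07) and higher with SB202190 by 0.54 ± 0.09 (adjusted p = 0.00583), while FGF2 and vehicle overlapped. Ier2 (-1.43, adjusted p = 1.3e-05), Egr3 (-1.41, adjusted p = 0.0012) and Fos were lower with U0126 as well, and Egr2 (-0.84) and Junb (-0.60), named after their values were seen, completed the 6. The 1 gene higher with U0126 was Nr4a1 (1.39 ± 0.34, adjusted p = 0.011), named after its value was seen. Egr3 was also higher with SB202190 (1.29 ± 0.25, adjusted p = 0.0143). The SB202190 calls of Egr1, Egr3 and Fos were lost with no intensity trend.

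The FGF synexpression group, genes that are transcribed together with FGF signalling and mostly restrain it, is the set to which Etv4 and Etv5 are usually joined. All 7 listed genes were called higher with FGF2 (median 1.36), 100% against 37.9% of all genes called and 18.9% called higher. With U0126 against FGF2, 4 were lower (median -0.54), 57.1% against 22.1% called and 10.5% called lower. With SB202190 1 was higher, 14.3% against 3.02%. Dusp6, the phosphatase of ERK, read 907 and 921 in FGF2 with U0126, 1498 and 1691 in FGF2 with SB202190, 1174 and 1276 in FGF2 and 258 and 258 in vehicle. It rose by 2.24 ± 0.07 log2 with FGF2 (limma, adjusted p = 2.68e-10), was lower by -0.43 ± 0.07 with U0126 (adjusted p = 0.00101) and higher by 0.36 ± 0.07 with SB202190 (adjusted p = 0.0183). As for Etv5, the Dusp6 arrays with U0126 lay above vehicle without overlap. Spred2 (1.76), Spred1 (1.36) and Spry2 (1.28), inhibitors of the Ras pathway, rose as well, and with U0126 Spry1 (-0.71), Spred2 (-0.57) and Spred1 (-0.54) were lower, with adjusted p of 0.000633, 0.00012 and 0.00217.

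**Figure D4:**
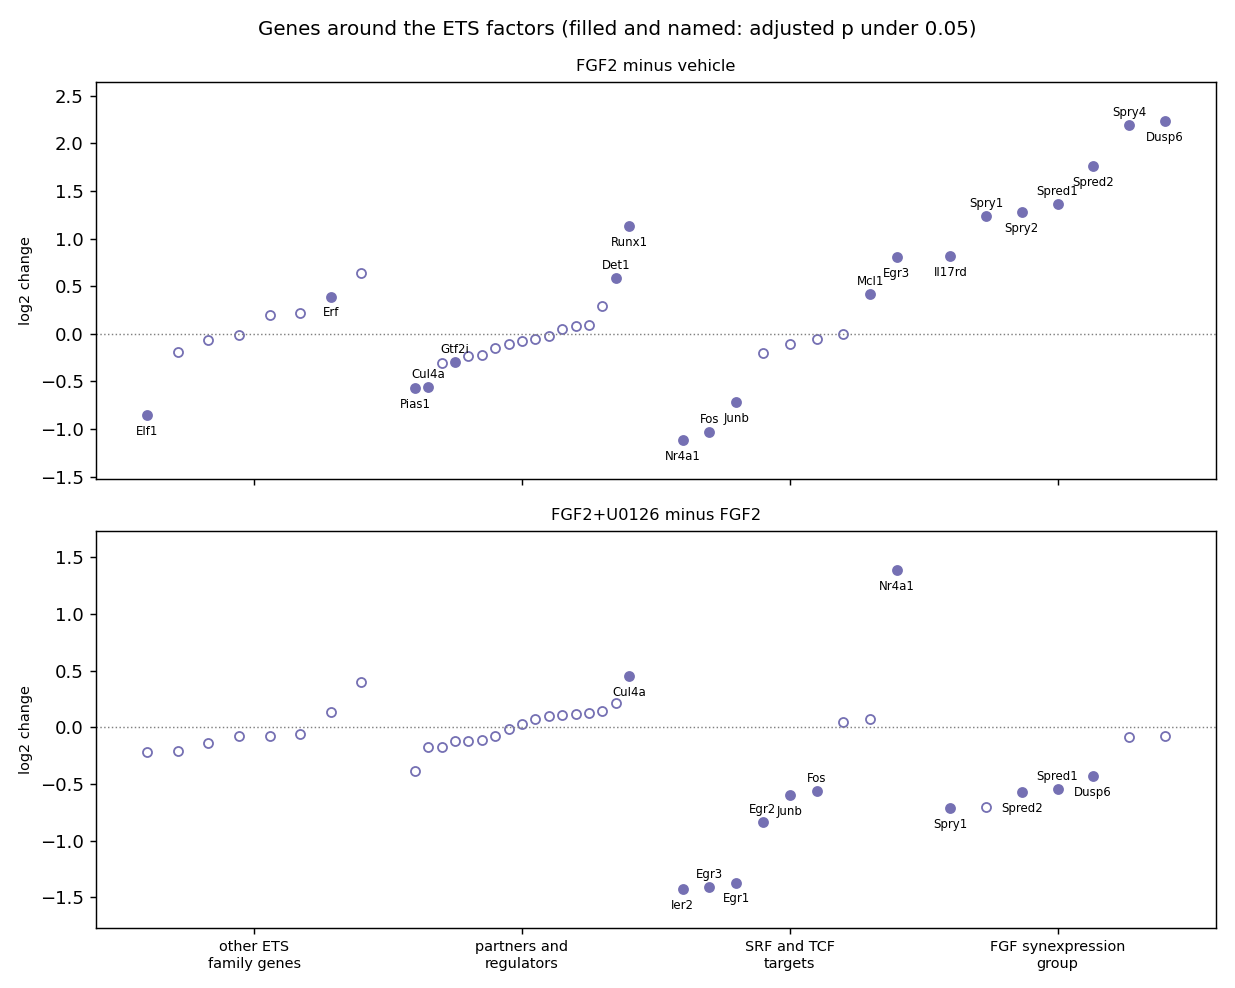
Log2 change (y axis) of each gene above the filter in 4 lists around the ETS factors, for FGF2 minus vehicle (top) and FGF2+U0126 minus FGF2 (bottom), ordered by change within a list. Filled and named points have an adjusted p under 0.05 in limma. All 7 genes of the FGF synexpression group lie above 0 in the top panel. In the bottom panel 6 of 9 SRF and ternary complex targets are called lower, against 10.5% of all genes.

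For the cell types that cortex can hold, all listed markers on the array, above the filter or not, were summed per sample. All 10 astrocyte markers were above the filter, and their summed signal was 14736 to 14829 in FGF2 with U0126, 10343 to 10771 in FGF2 with SB202190, 11233 to 11422 in FGF2 and 21545 to 21902 in vehicle. All 10 were called lower with FGF2 against vehicle, 100% against 37.9% of all genes called. With U0126 against FGF2, 8 were called higher, 80% against 22.1%. The astrocyte sum was lower in the FGF2 and SB202190 groups, where Etv1, Elk3 and Ets1 read higher, than in the U0126 and vehicle groups. In bulk RNA, fewer cells of a type and less RNA per cell cannot be told apart. Ets1 and Elk3 are also genes of endothelium, of whose 12 markers 6 were above the filter and Pecam1, Tek, Tie1, Cldn5, Emcn and Erg were not. The sum of all 12 was 226 to 227 in FGF2 with U0126, 239 to 246 in FGF2 with SB202190, 278 to 288 in FGF2 and 251 to 254 in vehicle. It was highest with FGF2 alone, as was Ets1. With SB202190 it lay below vehicle, whereas Ets1 and Elk3 lay above vehicle there. Of the 6 above the filter, 33.3% were called with FGF2, against 37.9% of all genes, and in opposite directions. Esam was called higher (1.84, adjusted p = 2.05e-05), Kdr lower (-1.72, adjusted p = 0.00133) and the other 4 not called. With U0126 against FGF2, 2 of the 6 were called lower, Esam (-0.98) and Cdh5 (-0.96), which is 33.3% against 22.1% of all genes. The other 4 were not called, and the median change of the 6 was 0.04, against 0.03 for all genes. Esam, Kdr and Cdh5 were named after their values were seen, and the part of endothelial RNA in the Elk3 and Ets1 results was not tested. Of the neuronal markers Rbfox3, Snap25, Nefl and Slc17a7 were below the filter, and 6 of 10 were above it. The sums of all 10 were 1900 to 1917 in FGF2 with U0126, 2621 to 2639 in FGF2 with SB202190, 2394 to 2501 in FGF2 and 2294 to 2306 in vehicle. With FGF2, 2 of the 6 above the filter were called higher and 1 lower, 50% against 37.9% of all genes.

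Of the other lists, 6 of 12 microglial markers were above the filter (Aif1, Cx3cr1, Itgam, P2ry12, Ptprc and C1qa were not). The sum of all 12 was 440 to 443 in FGF2 with U0126, 325 to 376 in FGF2 with SB202190, 336 to 349 in FGF2 and 304 to 380 in vehicle. Of 10 oligodendrocyte lineage markers, 9 were on the array and 6 above the filter. Those 9 summed to 3838 to 3947 in FGF2 with U0126, 4831 to 5181 in FGF2 with SB202190, 5403 to 5627 in FGF2 and 4288 to 4350 in vehicle. With FGF2, 1 of the 6 above the filter was called higher and 1 lower, 33.3% against 37.9% of all genes. Of 8 fibroblast and pericyte markers 7 were above the filter. All 8 summed to 4407 to 4534 in FGF2 with U0126, 3844 to 4368 in FGF2 with SB202190, 4506 to 4745 in FGF2 and 8847 to 8850 in vehicle, where they were highest. The parts of these lists in the changes of the ETS genes were not tested. The median signal of an array was 22.3 to 27.8, and log2 signals correlated at 0.98 to 0.984 within a group and at 0.947 to 0.981 between groups. Precision is limited by there being 2 arrays per group.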

How the data were processed

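Total RNA from 8 samples in 4 groups of 2 was measured on Affymetrix arrays. The authors deposited linear intensities of 45101 probe sets, and their values show each array scaled to a 2% trimmed mean of 150. The algorithm is not given in the sources used here. By platform annotation 34958 probe sets named 1 gene, 932 several and 9211 none. Values were taken to log2(value + 1.77), the 10th percentile of all values, and quantile normalized. On this scale the changes of low signals are understated. A gene was represented by its brightest probe set, and genes with a mean under the 40th percentile (log2 3.83) were left out, which kept 13174 of 18194. All 8 arrays entered 1 fit of limma (3.58.1, under R 4.3.3), moderated with an intensity trend on 4 residual plus 8.99 prior degrees of freedom. P-values were two-sided and adjusted (Benjamini-Hochberg) separately in each of 6 comparisons, with calls at an adjusted p under 0.05. Sentences that give only an adjusted p refer to this limma test. The same fit on 27061 probe sets gave the values by probe set, and those of Etv1, whose probe sets also name Gm5454. The script was tested on simulated data. Named genes were the ETS genes, up to 4 called genes per list and comparison with the smallest p, and the 3 genes most correlated with a called ETS gene, with exceptions for Etv1, for Cic and Srf, which were not called, and for Braf, Fgfr2, Map2k2, Shc1, Det1, Nr4a1, Egr2, Junb, Esam, Kdr and Cdh5 in comparisons where they were named after their values were seen. The ETS genes and the lists were chosen with earlier results of these data known. Motif searches used Python 3.11.15. Alternatives covered normalization, pseudocount, filter, variance prior, array weights, samples in the fit, probe set choice, threshold, the replicate number as a block and leaving out each array.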

Additional observations from a re-analysis of the deposited data

How the results depend on the processing

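Across the 8 genes, 3 main comparisons and 23 alternatives, 533 of 546 log2 changes kept their side of the threshold, 7 lost a call, 6 gained one and no called change reversed its sign. The main fit called 4, 2 and 0 genes in these comparisons, so most of the 533 were changes that stayed not called. Of the 7 lost calls, 5 were that of Ets1 with U0126. Values of the other probe sets are not in this tally. For FGF2 against vehicle the count of ETS genes called was 4, and 7 with median centring, where Etv6 (0.53), Elk4 (0.40) and Ets2 (0.55) passed. Median centring also moved the median change of all genes to 0.157 for FGF2, 0.188 for FGF2 with U0126 and 0.178 for FGF2 with SB202190, each against vehicle, so these changes are to be read against those shifts. For FGF2 with U0126 against FGF2 the count of 2 was 0 with the mean of probe sets, 1 at an adjusted p under 0.01 and 1 to 2 with an array left out. For FGF2 with U0126 against vehicle the count of 2 was 4 with median centring and 1 with the filter at the 60th percentile, which left out Etv4, or without Etv4, an alternative chosen after seeing the data. For FGF2 with U0126 against FGF2 with SB202190 the count of 2 was 1 with no intensity trend, 0 with the mean of probe sets, 1 at an adjusted p under 0.01 and 1 to 3 with an array left out. The causes were not tested. Same-numbered arrays did not deviate together over all genes tested (r of -0.026 to 0.034). That cannot show whether the numbers mark a shared culture or day, which the labels do not state. With the replicate block 4 genes were called for FGF2 and 2 for U0126. The U0126 call of Ets1 probe set 1452163_at was then lost (limma, adjusted p = 0.0546), as was the call of Elk3 probe set 1417662_at in SB202190 against vehicle (0.0532). Over all genes, no intensity trend gave 1619 calls for U0126 against FGF2 in place of 2916, and 0 for SB202190 against FGF2 in place of 398. The SB202190 calls against FGF2 of Fgfr2, Cul4a, Fos, Egr1, Egr3 and Dusp6 were thus lost in that setting. Signals near the filter, as for Etv4 in vehicle, limit the precision of its fold change.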
